A study of Mus musculus with 2 samples.

Results

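The Rab genes encode small GTPases, switch proteins that sit on the membranes of vesicles and organelles. They were taken as the protein-coding genes of the GENCODE M21 annotation of the mouse genome (GRCm38) whose symbol is Rab followed by a number and at most a letter and a digit, and 59 of the 21951 protein-coding genes met this rule. DNA bound by TET2 was measured by ChIP-seq in cultured primary cells: adipose-derived stem cells (ASCs) from inguinal white adipose tissue of mice, grown to confluence, differentiated into adipocytes with IBMX, dexamethasone and insulin, and then kept in insulin. A single library was made from the DNA pulled down with TET2 and another from input chromatin of such cells, without the pull-down, and the 2 do not differ in genotype or treatment. The authors called peaks with MACS2 and deposited 14103 of them, each with the −log10 p that the peak caller gave it. There was no replicate, so no value below has a replicate error, no p-value was computed, and every interval covers counting error only.

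A Rab protein is active and membrane-bound when it holds GTP and inactive when it holds GDP. Guanine nucleotide exchange factors (GEFs) load it with GTP, GTPase-activating proteins (GAPs) make it hydrolyse the GTP, and effectors such as tethers and myosin motors bind the active form. In fat cells, insulin moves the glucose transporter GLUT4 from inside the cell to the surface, and Rab10, held back by the GAP Tbc1d4 until insulin signals through Akt2, is the Rab best known for this step. TET2 is a dioxygenase that oxidises 5-methylcytosine in CpG dinucleotides to 5-hydroxymethylcytosine, a mark found at regulatory DNA.

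The sequences behind the most prominent TET2 peaks at Rab promoters, and those of the glucose transporter Rabs without one, are shown first. CpG dinucleotides, the sites that TET2 can act on once they are methylated, are in capitals. Each sequence reads 5′ to 3′ on the strand of its gene and leaves out untranslated exons. The first 3 lie inside the peaks with the largest −log10 p at any Rab gene, and the next comes from the promoter peak of Rab28. The Rab10 and Rab8a sequences are the 250 bases before the RefSeq start sites of these genes on GRCm38.p6, where no TET2 peak was listed. The RefSeq promoter table held 48 of the Rab symbols.
Rab22a, chr2:173659510-173659759, plus strand, ends at the principal start site: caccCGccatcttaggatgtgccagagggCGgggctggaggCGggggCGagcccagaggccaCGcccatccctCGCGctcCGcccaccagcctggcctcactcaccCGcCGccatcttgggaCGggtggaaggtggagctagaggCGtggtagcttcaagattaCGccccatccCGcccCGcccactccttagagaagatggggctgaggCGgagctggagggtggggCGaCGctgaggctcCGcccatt
Rab1a, chr11:20201653-20201902, plus strand: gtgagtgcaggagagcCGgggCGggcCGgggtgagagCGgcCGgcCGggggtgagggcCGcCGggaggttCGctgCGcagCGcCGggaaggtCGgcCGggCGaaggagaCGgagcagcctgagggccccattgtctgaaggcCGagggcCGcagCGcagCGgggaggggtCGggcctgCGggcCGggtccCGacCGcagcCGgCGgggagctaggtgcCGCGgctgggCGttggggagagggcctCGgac
Rab3b, chr4:108879219-108879411, plus strand: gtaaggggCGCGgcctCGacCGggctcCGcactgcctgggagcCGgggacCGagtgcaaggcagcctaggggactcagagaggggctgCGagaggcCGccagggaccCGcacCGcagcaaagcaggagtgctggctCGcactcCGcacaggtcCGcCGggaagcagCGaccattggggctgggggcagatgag
Rab28, chr5:41707614-41707863, minus strand: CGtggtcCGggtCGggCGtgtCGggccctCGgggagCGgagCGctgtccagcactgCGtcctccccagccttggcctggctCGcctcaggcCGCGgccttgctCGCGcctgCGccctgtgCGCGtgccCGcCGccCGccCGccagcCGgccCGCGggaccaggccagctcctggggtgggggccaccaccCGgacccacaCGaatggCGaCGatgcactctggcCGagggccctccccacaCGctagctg
Rab10, chr12:3309970-3310219, minus strand, no peak: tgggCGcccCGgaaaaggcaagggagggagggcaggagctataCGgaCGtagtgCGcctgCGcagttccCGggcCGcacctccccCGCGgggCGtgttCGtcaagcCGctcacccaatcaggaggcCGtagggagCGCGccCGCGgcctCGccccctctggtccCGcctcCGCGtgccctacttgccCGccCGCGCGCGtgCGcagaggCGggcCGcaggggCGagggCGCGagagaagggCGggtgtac
Rab8a, chr8:72160950-72161199, plus strand, no promoter peak: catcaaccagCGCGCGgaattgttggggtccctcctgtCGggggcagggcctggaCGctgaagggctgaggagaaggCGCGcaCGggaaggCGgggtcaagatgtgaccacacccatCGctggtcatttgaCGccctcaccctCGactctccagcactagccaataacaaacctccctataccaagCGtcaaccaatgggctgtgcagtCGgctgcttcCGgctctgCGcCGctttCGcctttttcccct
The Rab10 sequence held 34 CpG sites in its 250 bases, more than the 31 of the Rab1a stretch, the 30 of the Rab28 stretch and the 19 of the Rab22a stretch, which lie in peaks. The Rab8a sequence held 18 CpG sites. The Rab3b stretch is shorter, at 193 bases, and held 16. Among the stretches printed, CpG density did not separate those with a peak from those without one. They are few and lie at different positions around the start site, and all promoters are compared by CpG ratio further below.

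TET2 peaks lay at the promoters of a minority of Rab genes. A promoter peak was one whose midpoint was within 1 kb of any annotated transcription start site (TSS) of the gene, and 17 of 59 Rab genes (28.8%, exact 95% interval 17.8 to 42.1%) had one, beside 24.6% of all protein-coding genes. A peak midpoint fell in the gene body of 22 Rab genes (37.3%, 25.04 to 50.9%), beside 32.1% of all protein-coding genes. Either place had a peak in 23 Rab genes (38.98%, 26.5 to 52.6%), beside 35.4% of all protein-coding genes, and 36 Rab genes had none. All 3 intervals include the share of all protein-coding genes, so at this number of genes the Rab shares could not be told apart from it. The 23 genes held 26 distinct peaks, 17 at promoters and 9 in gene bodies more than 1 kb from a TSS of the gene. Of these genes, 6 had a gene body peak only.

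**Figure D1:**
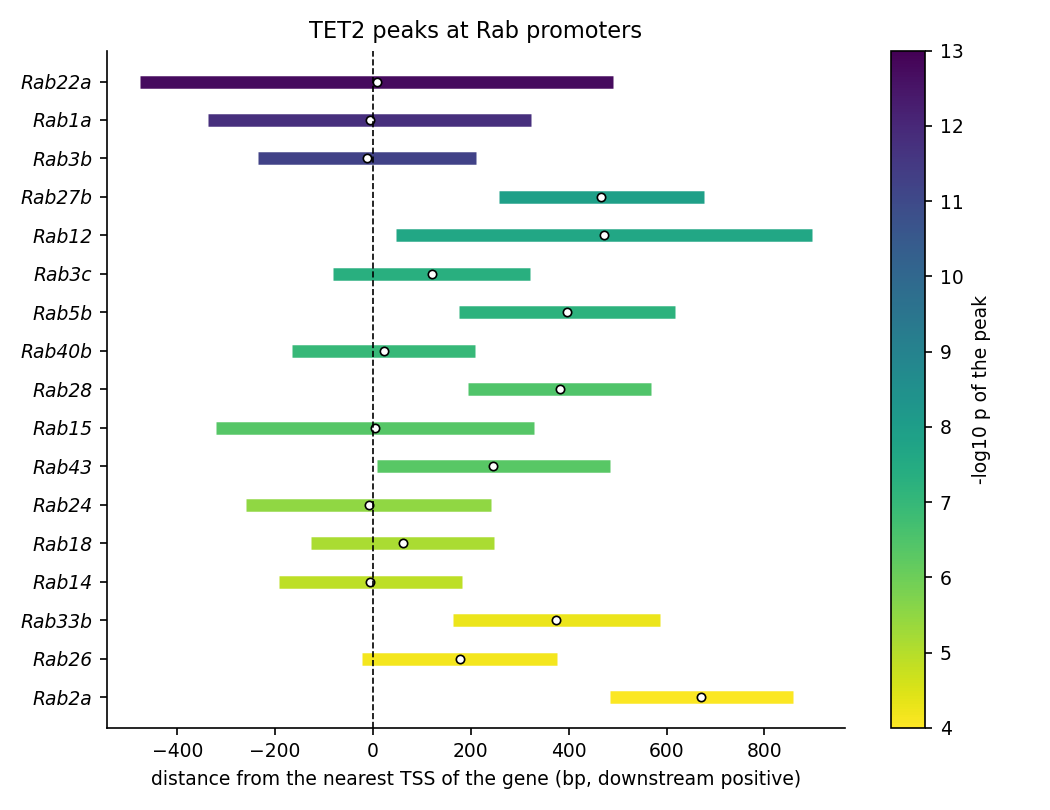
TET2 peaks at the promoters of 17 Rab genes, drawn as bars from first to last base around the nearest TSS of the gene (dashed line), with the midpoint as a white dot. The x axis is the distance in bp, positive downstream, genes are ordered and bars coloured by −log10 p. The 3 top peaks are centred within 12 bp of a TSS, and no midpoint lies more than 12 bp upstream. This limit was read from these same peaks, and 29.2% of the promoter peaks of all protein-coding genes lie beyond it.

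Rab22a, which acts in sorting at early endosomes, had the most prominent peak of the family. It spanned chr2:173659381-173660348, was 968 bp long with 96 CpG sites, and its −log10 p of 12.7 ranked 283 among all 14103 peaks. Its midpoint was 8 bp downstream of a TSS, in a 5′ UTR exon. Rab1a, which carries vesicles from the endoplasmic reticulum to the Golgi, followed with a peak at chr11:20201265-20201925, a −log10 p of 11.8 and rank 477. Its midpoint was 7 bp upstream of a TSS. Rab3b, a Rab of regulated secretion, had a peak at chr4:108878965-108879411 with a −log10 p of 11.2 and rank 622, centred 12 bp upstream of a TSS. These were the only Rab peaks with a −log10 p of 10 or more, 3 of 26 (11.5%), beside 8.66% of all peaks.

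Among the Rabs of the endoplasmic reticulum and Golgi, 5 of 14 had a promoter peak and 1 a gene body peak only. Besides Rab1a, the promoter peaks belonged to Rab43, which acts in Golgi traffic, with a −log10 p of 6.32 at 246 bp downstream of the TSS, and to Rab18, a Rab also known from the surface of lipid droplets, with 5.13 at 61 bp downstream. The peaks of Rab33b, an autophagy and Golgi Rab, and Rab2a, which acts between the endoplasmic reticulum and the Golgi, were among the least prominent of the family. Rab33b had a −log10 p of 4.25 at 375 bp and Rab2a one of 4.05 at 671 bp, the most distant promoter midpoint of any Rab. Rab2a had a further peak 38.1 kb into the gene with a −log10 p of 4.86. Rab1b, the close relative of Rab1a, had no promoter peak but carried the gene body peak with the largest −log10 p, 9.09 (rank 1914), at chr19:5099506-5099979, in a 3′ UTR exon 6503 bp from its nearest TSS. Both Rab1 genes thus had a peak, at opposite ends of the gene.

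Of the 15 Rabs of early and recycling endosomes, 3 had a promoter peak, 2 a gene body peak only and 10 none. Rab5b, an isoform of the Rab that drives early endosome fusion, had a peak at chr10:128695640-128696081 with a −log10 p of 7.21 (rank 5067), in an intron 397 bp from the TSS, whereas Rab5a and Rab5c had none. Rab14, which works between the Golgi and endosomes, had a peak at its TSS with a −log10 p of 4.91. Rab31, the paralogue of Rab22a, had a peak in an intron 110936 bp from its nearest TSS with a −log10 p of 6.21. A peak with a larger −log10 p, 9.58, lay 10.0 kb from the Rab31 TSS on the upstream side, outside the 1 kb window and the gene.

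In the group of late endosomes, lysosomes and autophagy, 2 of 11 Rabs had a promoter peak. Rab12, which has been tied to lysosomal degradation of membrane receptors, had one at chr17:66518481-66519330, 850 bp long, with a −log10 p of 7.63 (rank 3895), centred 472 bp from a TSS in an intron. Rab24, an autophagy Rab, had a peak with a −log10 p of 5.48, centred 9 bp upstream of its TSS. That midpoint was also 64 bp from the TSS of Prelid1, a mitochondrial protein gene transcribed the other way, so the peak cannot be assigned to either gene alone. Rab7, the main Rab of late endosomes, had no promoter peak and a peak with a −log10 p of 6.32 in a 3′ UTR exon, 20006 bp from the nearest of its TSSs.

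Among the 14 Rabs of secretion and surface delivery, 5 had a promoter peak and 2 a gene body peak only. Rab3c, a second secretory Rab3 gene, was one of 3 Rab genes with both a promoter and a gene body peak, the others being Rab28 and Rab2a. Its promoter peak at chr13:110279829-110280231 had a −log10 p of 7.34 (rank 4403), 120 bp downstream of the TSS. Its other peak, chr13:110148814-110149447, had a −log10 p of 7.21 (rank 4971) and lay 131020 bp into the gene, in an intron. Rab27b, which acts in granule and exosome release, had a peak at chr18:70052912-70053330 with a −log10 p of 7.91 (rank 3523). It counts as a promoter peak through an internal start, 467 bp away, while the principal TSS of Rab27b was 88.5 kb from it. Rab15 and Rab26, both of vesicle transport, had promoter peaks with a −log10 p of 6.36 and 4.15. Rab44, a large Rab of immune cell granules, had an intronic peak with a −log10 p of 7.16 (rank 5152) at chr17:29147076-29147502, 1570 bp from its nearest TSS and so beyond the 1 kb limit.

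The remaining class, of cilium and other Rabs, had promoter peaks at Rab28 and at Rab40b, a Rab with a SOCS box that recruits a ubiquitin ligase, whose peak had a −log10 p of 6.98 and was centred 22 bp from the TSS. Each of the 5 classes had 2 to 5 members with a promoter peak. With 5 to 15 genes a class and a promoter peak at 24.6% of all protein-coding genes, these counts do not set a class apart.

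**Figure D2:**
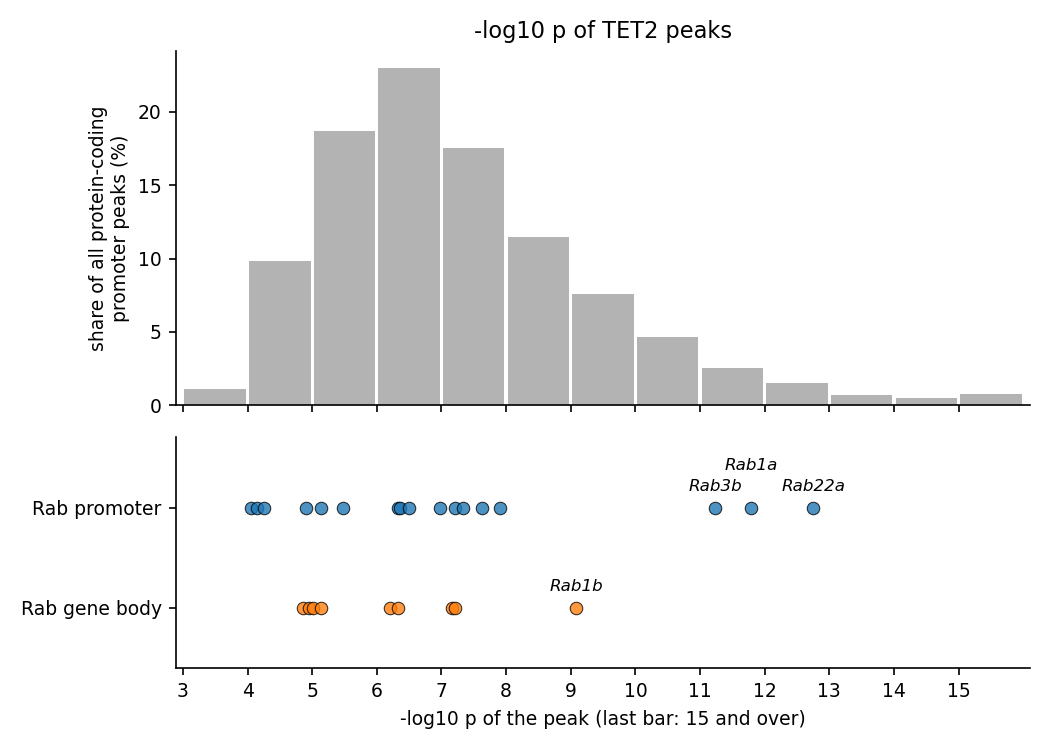
The −log10 p of TET2 peaks (x axis). The upper panel gives the share of the 5170 promoter peaks of all protein-coding genes per unit of −log10 p, in percent, and the lower panel each of the 17 Rab promoter peaks (blue) and 9 Rab gene body peaks (orange) as a dot. Apart from Rab22a, Rab1a and Rab3b, the Rab promoter peaks sit below 8, within the bulk of the grey distribution.

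The Rab peaks were of ordinary size for this list. The median −log10 p was 6.34 (lowest 4.05, highest 12.7), beside 6.21 for all peaks, and 15 of 26 were above that median. The promoter peaks alone had a median of 6.49, beside 6.83 for the 5170 promoter peaks of all protein-coding genes, and 8 of 17 were above it. Values under 5 were found for 6 of 26 Rab peaks (23.1%), beside 15.5% of all peaks. Rab14, Rab33b, Rab26 and Rab2a were the genes whose promoter peak was among them, so 4 of the 17 promoter calls rest on the smallest values of the list. Such values are weaker than the p-value limit stated for the peak calling, and the sources used here do not say why they are listed. The median length of the Rab peaks was 426.5 bp, beside 426 bp for all peaks.

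Glucose transporter traffic was described for the 12 Rabs that have been linked to it in fat or muscle cells. A promoter peak was present at 2 of these 12 (16.7%), Rab14 and Rab28, beside 24.6% of all protein-coding genes. Rab8a and Rab4a had a gene body peak only, and 8 had no peak, so 4 of 12 had a peak at either place, beside 35.4% of all protein-coding genes. For Rab10, at chr12:3247428-3309969 on the minus strand with a single annotated TSS, no peak lay in the gene or within 1 kb of its start, and the midpoint nearest to that start was 129 kb away. Rab10 was not a CpG-poor gene: the ratio of observed to expected CpG in the 500 bp on each side of its TSS was 0.909. The absence of a listed peak says that none passed the authors' peak calling in this library, not that TET2 was absent from the promoter.

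Rab8a, a Rab of exocytosis that stands in for Rab10 in muscle cells, had a peak at chr8:72180230-72180702 with a −log10 p of 5.01 (rank 11631). It lay in a 3′ UTR exon 19.3 kb from the principal TSS and held 11 CpG sites in 473 bp. The peak nearest to the Rab8a TSS was 8.45 kb from it and outside the gene, with a −log10 p of 6.04. The CpG ratio around the Rab8a TSS was 0.792, so this promoter too was CpG-rich.

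Rab28 was the only gene of these 12 with peaks both at the promoter and in the gene body. The promoter peak, chr5:41707552-41707926, had a −log10 p of 6.49 (rank 6408) and was centred in an intron 382 bp from a TSS, with 36 CpG sites. The other, chr5:41683429-41683803, had a −log10 p of 5.13 (rank 10017) and lay 24.5 kb into the gene with 2 CpG sites and 44.8% of its bases in annotated repeats. Both had the smallest length in the list, 375 bp. Rab14 had its peak at chr2:35200766-35201140, rank 12018, centred 6 bp upstream of a TSS in a 5′ UTR exon. Rab4a, of fast recycling from early endosomes, had a peak at chr8:123811094-123811468 with a −log10 p of 4.95 (rank 11923), 5213 bp from its nearest TSS. Repeats made up 83.2% of that interval, the only Rab peak above 80%.

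The other glucose transporter Rabs had no peak, at distances from TSS to nearest peak midpoint that varied widely. The nearest peak was 9.64 kb away for Rab4b, 17.4 kb for Rab35, 26.8 kb for Rab8b and 33.7 kb for Rab13. It was 35.8 kb away for Rab11a and 52.1 kb for Rab11b, both of the recycling endosome, and 362 kb for Rab5a. For the 36 Rab genes without a peak the distance ran from 5.26 kb at Rab27a to 484 kb at Rab9, with a median of 47.05 kb.

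Peaks were also compared within groups of closely related Rab genes, 19 groups of paralogues that hold 44 genes. In 9 groups exactly 1 member had a promoter peak, in 9 groups none had, and only in the Rab3 group did more than 1, Rab3b and Rab3c. The pairs with a single promoter peak included Rab1a against Rab1b, Rab2a against Rab2b, Rab22a against Rab31, Rab27b against Rab27a and Rab33b against Rab33a. The group of Rab8a, Rab8b, Rab10 and Rab13 had none at a promoter, and the groups of Rab11, Rab6, Rab9, Rab32 and Rab38, Rab34 and Rab36, and Rab39 had no peak at any place. Of the 15 Rab genes outside these groups, 6 had a promoter peak. A promoter peak was present at 28.8% of all Rab genes and at 24.6% of all protein-coding genes. Whether the split within groups differs from what such shares alone would give was not tested.

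Positions of the Rab promoter peaks were taken from the nearest TSS of the gene, which need not be the principal one. Offsets of the midpoint ran from −12 to 671 bp with a median of 120 bp, beside a median of 86 bp and a range of −999 to 996 bp for the promoter peaks of all protein-coding genes. The midpoint was level with the TSS or downstream of it in 13 of 17 (76.5%), beside 67.3%, and within 200 bp of it in 10 of 17 (58.8%), beside 56.0%. The peak spanned a TSS of the gene in 10 of 17. Neither this count nor the split by annotation that follows was computed for the peaks of all protein-coding genes, so both are description only. By annotation, 7 of the midpoints were in a 5′ UTR exon, 5 in an intron, 4 in a coding exon and 1, that of Rab24, upstream of the gene. Of the 9 gene body peaks, 6 were in introns and 3 in 3′ UTR exons, at Rab1b, Rab7 and Rab8a.

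Base composition was set side by side for both kinds of Rab peak. The promoter peaks held a median of 36 CpG sites (19 to 96) and a GC content of 69.1%, and the gene body peaks held a median of 13 CpG sites (2 to 36) and a GC content of 53.5%. The Rab3c peak, with 36 CpG sites, was the gene body peak with the most, and the Rab28 peak with the fewest. Annotated repeats made up 40.4% of the bases of that Rab3c peak. Rab genes had a median length of 23.2 kb, beside 17.4 kb for all protein-coding genes. A gene body peak away from the TSSs was found at 9 Rab genes (15.3%), beside 16.004% of all. Gene length classes differed in this background. Among genes over 100 kb, 2 of 4 Rab genes and 48.3% of all protein-coding genes had such a peak, and among genes under 10 kb, 1 of 10 and 5.06%.

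**Figure D3:**
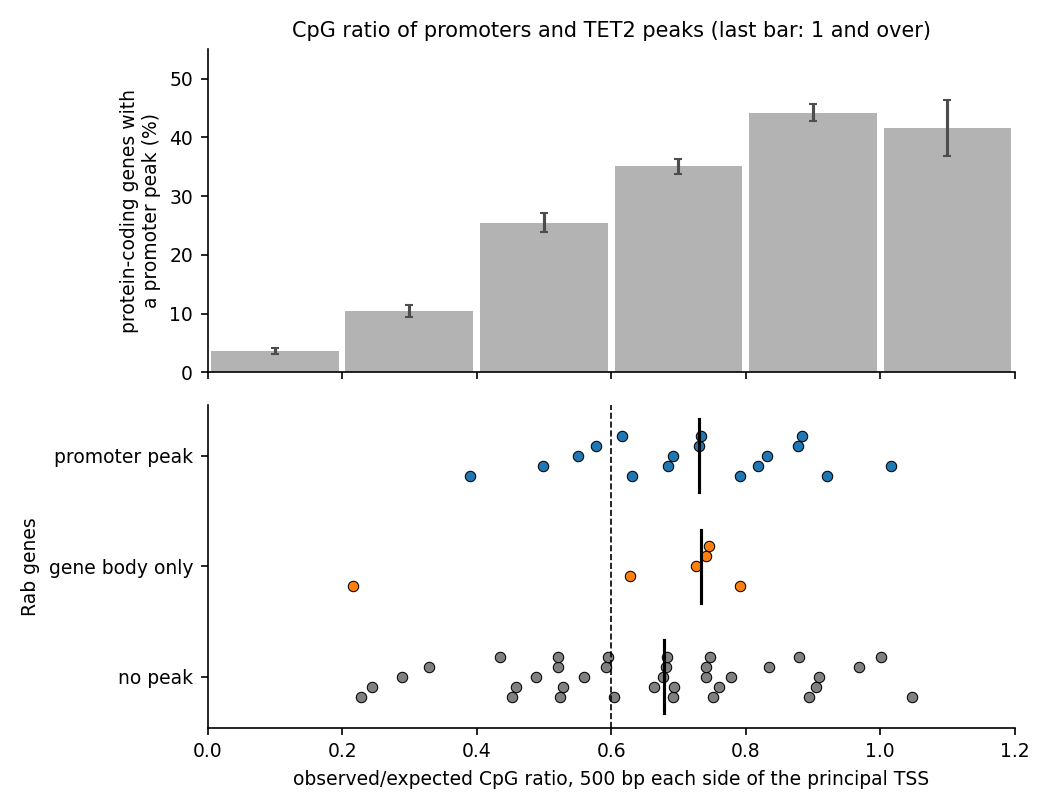
CpG ratio (observed over expected, 500 bp each side of the principal TSS, x axis) and TET2 promoter peaks. The upper panel gives the percent of protein-coding genes with a promoter peak per class of the ratio, with exact 95% intervals, and the lower panel each of the 59 Rab genes by its peak state, with medians as bars and the limit of 0.6 dashed. Rab genes with a promoter peak had a median ratio of 0.730 and overlapped those without one over nearly their whole range.

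Most Rab promoters were CpG-rich. A CpG ratio of at least 0.6 was found at 39 of 59 (66.1%), beside 47.5% of the protein-coding genes with a principal TSS. Among these CpG-rich promoters 13 of 39 Rab genes had a peak (33.3%, 19.1 to 50.2%), beside 39.1% of all CpG-rich promoters. Among the CpG-poor ones 4 of 20 had a peak (20%, 5.73 to 43.7%), beside 11.4%. The class is that of the principal TSS, while a peak at any TSS of the gene counted, in Rab genes and in all genes. Rab27b is among the 4 in this way, with no peak at the CpG-poor promoter that was classed. Over all protein-coding genes the median ratio was 0.753 with a promoter peak and 0.430 without, whereas for Rab genes it was 0.730 with and 0.682 without. Rab6a, a Golgi Rab with a ratio of 1.05, was the most CpG-rich Rab promoter and had no peak, and Rab27b, at 0.391, was the least CpG-rich Rab gene with a promoter peak, which lay at its internal start.

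Short motifs were searched on both strands in the 100 bp on each side of the midpoint. The SP1 motif GGGCGG, a GC box, was in 6 of 17 Rab promoter peaks (35.3%, 14.2 to 61.7%), beside 47.0% of the 5170 promoter peaks of all protein-coding genes. The AP-2 motif GCCNNNGGC was in 4 of 17 (23.5%), beside 27.9%. The C/EBP motif TTGCNNAA was in none of 17, for which the exact 95% upper limit is 19.5%, beside 2.55%, and the CRE TGACGTCA was in none, beside 0.696%. The YY1 motif AAGATGGC was in those of Rab14 and Rab22a (11.8%, 1.46 to 36.4%), beside 1.91%. The ETS motif CCGGAAGT and the E-box CACGTG were each in 1 peak, that of Rab24 beside Prelid1, beside 1.82% and 5.07%. In the 250 bases before the start site printed above, Rab22a held 5 matches to GGGCGG and 2 to AAGATGGC, Rab10 held 2 and 0, and Rab8a none of either. The same 250 bases of the promoters in the RefSeq table held GGGCGG in 32.7% and AAGATGGC in 1.56%. Such a match is a run of letters in the window and does not show that the factor was bound.

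**Figure D4:**
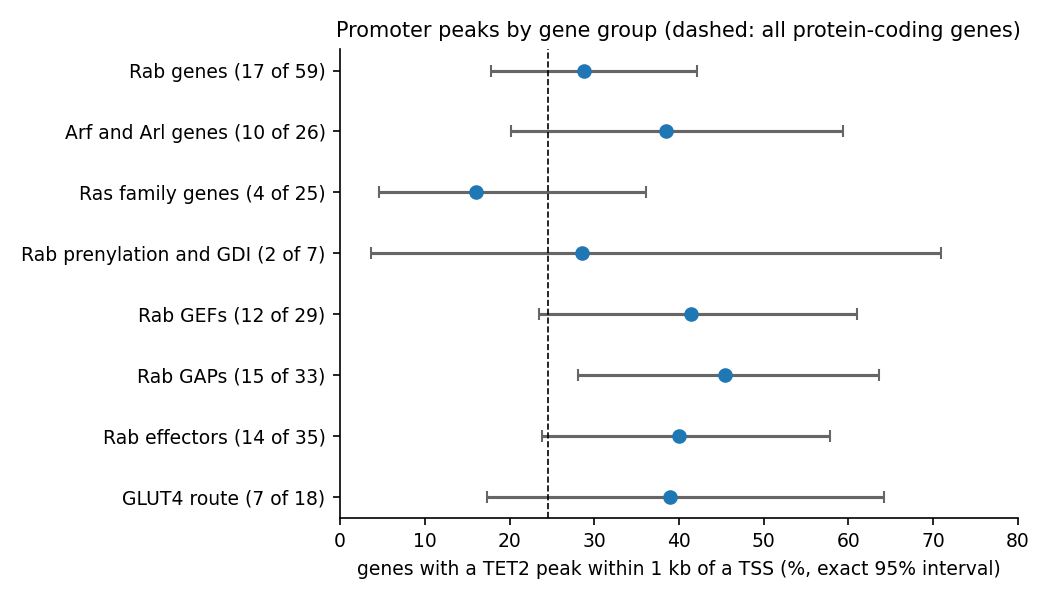
Percent of genes with a TET2 peak within 1 kb of a TSS (x axis) in the Rab genes, 2 other families of small GTPases, and genes of the Rab cycle and the GLUT4 route, with exact 95% intervals and counts beside each name. The dashed line is the 24.6% of all protein-coding genes, which lies inside every interval except that of the Rab GAPs (28.1 to 63.6%).

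Other families of small GTPases gave shares on both sides of that of the Rab genes. A promoter peak was found at 10 of 26 Arf and Arl genes (38.5%, 20.2 to 59.4%), which control vesicle coats and cilia. It was found at 4 of 25 Ras family genes (16%, 4.54 to 36.1%), which relay growth signals. Both intervals hold the Rab share of 28.8%. Among CpG-rich promoters the share was 47.6% for Arf and Arl, 23.5% for Ras and 33.3% for Rab genes.

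The partners of Rab proteins were described by lists of their known roles. Of 7 genes that prenylate Rabs or extract them from membranes, 2 had a promoter peak: Rabggtb, a subunit of the enzyme that attaches the lipid, with a −log10 p of 7.54, and Gdi2, which keeps inactive Rabs soluble, with 5.19. Of 29 GEFs, 12 had a promoter peak (41.4%, 23.5 to 61.1%) and 15 a peak at either place (51.7%), beside 24.6% and 35.4% of all protein-coding genes. The GEF list was CpG-rich in 58.6%, and its genes had a median length of 59.7 kb, beside 17.4 kb for all protein-coding genes. Of its CpG-rich promoters 41.2% had a peak, beside 39.1% of all CpG-rich promoters. The part of gene length in its share at either place was not tested. The 3 GEF genes with the largest −log10 p had it at the promoter of Rabif (10.7), in a coding exon of Mon1a (9.58), part of the GEF of Rab7, and at the promoter of Dennd6b (9.39). Dennd4c, the GEF known for Rab10 in fat cells, had no peak, and the nearest one was 96.8 kb away.

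Of 33 GAPs, 15 had a promoter peak (45.5%, 28.1 to 63.6%) and 22 (66.7%) a peak at either place, beside 24.6% and 35.4% of all protein-coding genes. The 3 GAP genes with the largest −log10 p were Evi5, a GAP linked to Rab11, with an intronic peak of 10.9, Tbc1d16 with intronic peaks of 10.5 and 9.72, and Rab3gap2, a subunit of the Rab3 GAP complex, with a promoter peak of 9.25. Tbc1d4, the GAP that insulin switches off ahead of Rab10, had a promoter peak with a −log10 p of 4.08, rank 13629, centred 58 bp from the TSS, and 2 intronic peaks, each with 5.13. Its relative Tbc1d1 had a promoter peak with a −log10 p of 6.12 at 168 bp and 3 gene body peaks. The GAP list was CpG-rich in 84.8% and had a median gene length of 68.8 kb, beside 47.3% and 17.4 kb for all protein-coding genes, and the part of both in its share was not tested. Of its CpG-rich promoters 50% had a peak, beside 39.1% of all CpG-rich promoters.

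Of 35 effectors, 14 had a promoter peak (40%, 23.9 to 57.9%) and 23 a peak at either place (65.7%), beside the same 24.6% and 35.4%. The effector list was CpG-rich in 71.4%, and its genes had a median length of 62.6 kb. Of its CpG-rich promoters 44% had a peak, beside 39.1% of all CpG-rich promoters. The part of gene length in its share at either place was not tested. The peak with the largest −log10 p of all these lists was at the promoter of Myo5a, a motor that carries Rab vesicles along actin, with 14.7 and rank 127, ahead of every Rab gene. It was followed by an intronic peak in Exoc4 (14.2), a subunit of the exocyst that tethers vesicles at the plasma membrane, and by a peak in a coding exon of Sytl1 (10.2), a Rab27 effector. Of 18 genes of the GLUT4 route, 7 had a promoter peak (38.9%, 17.3 to 64.3%) and 9 a peak at either place (50%), beside 24.6% and 35.4% of all protein-coding genes. This list was CpG-rich in 88.9%, and 37.5% of its CpG-rich promoters had a peak, beside 39.1% of all CpG-rich promoters. Its genes had a median length of 53.8 kb, beside 17.4 kb for all protein-coding genes. How far gene length enters the 50% at either place was not tested. Lrp1, a receptor found in GLUT4 vesicles, had its 3 largest values, in 2 gene body peaks (7.91 and 7.21) and a promoter peak (7.16). The next genes were Aspscr1 (6.01), the tether that holds those vesicles, and Stxbp3 (5.91), which regulates their fusion. The insulin receptor gene Insr and Akt2 each had a promoter peak with a −log10 p of 5.13. Slc2a4, which encodes GLUT4, had no peak, the nearest lying 18.3 kb from its TSS.

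A peak list gives no expression, so the labelled cell type could not be checked from marker levels. Of 8 adipocyte markers, Lep alone had a promoter peak, with a −log10 p of 11.2. Adipoq, Plin1, Fabp4, Pparg, Cebpa, Cidec and Lipe had none. The share was 12.5% (exact interval 0.316 to 52.7%), beside 24.6% of all protein-coding genes. Only 1 of the 8 markers had a CpG-rich promoter, and 11.4% of all CpG-poor promoters had a peak. With 8 genes the marker share could not be told apart from either background.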

How the data were processed

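TET2 ChIP-seq was analysed from the deposited peak list of 1 TET2 library. Per the methods and the submitters' processing notes, the authors filtered the reads, aligned them with bowtie1 and called peaks with MACS2 2.1.0 against 1 input library. The authors' −log10 p of each deposited peak served to rank and select peaks and was not tested, and 2182 of the 14103 peaks had a value under 5, weaker than the p-value limit stated for the peak calling, for a reason not given in the sources used here. The methods name GRCm39 and the processing notes mm10. All 14103 peaks fit inside the GRCm38 chromosomes and 41.3% had a midpoint within 1 kb of a GENCODE M21 TSS of any gene, so GRCm38 was used and no coordinate was converted. Read totals, pileups and summits were not used here, so the depth behind a peak is unknown, and the input library was not analysed on its own.

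Starts in the list are counted from 1. A peak was given to a gene when its midpoint was within 1 kb of any TSS of the gene or inside the gene. CpG ratios were taken over 500 bp on each side of the APPRIS principal TSS, and 85 protein-coding genes without a protein-coding transcript start were left out of them. Repeats are the soft-masked bases of the RefSeq genome file. Intervals are exact (Clopper-Pearson) at 95%. With 1 library there was no test across samples. Every Rab gene with a peak is named, with full values for the 10 peaks with the largest −log10 p and the glucose transporter Rabs, and from the partner lists the 3 genes with the largest peaks and Tbc1d1, Tbc1d4, Dennd4c and Slc2a4. Insr, Akt2 and Prelid1 were added after their values were seen. The members and lists were chosen with earlier results of these data known. Alternatives were other windows, TSS sets, −log10 p limits, overlap rules, repeat filters and motif windows. Peak placement and motif search were tested on simulated data. The tools were pysam 0.24.0, scipy 1.17.1, pandas 2.3.3 and numpy 2.4.6 under Python 3.11.15, with matplotlib 3.10.9 for plots.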

Additional observations from a re-analysis of the deposited data

How the results depend on the processing

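Of 51 alternatives computed for the Rab counts, positions and motif shares, 46 stayed within a set limit, 5 moved beyond it and 0 reversed. The limit was 1.5 times the count or median, or the exact 95% interval of the share. A reversal could be recorded only for the position of the peaks, so 0 reversed says little about the other results. The intervals were wide: C/EBP went from 0 to 17.6% and counted as unmoved because its interval reached 19.5%. With peaks of −log10 p of at least 10 only, 3 Rab genes (5.08%) kept a peak, those of Rab22a, Rab1a and Rab3b. These 3 are promoter peaks whose midpoints also lie inside the gene, so the promoter, gene body and either counts were all 3. Over all protein-coding genes 2.71% kept a promoter peak, 3.94% a midpoint in the gene body and 4.34% either. No Rab gene body peak more than 1 kb from a TSS of the gene reached this limit. In 250 bp each side of the midpoint the SP1 motif was in 76.5% of the Rab promoter peaks and in 73.6% of those of all protein-coding genes. In that window the C/EBP motif was in 17.6% (Rab27b, Rab28 and Rab40b), beside 8.57%, and AP-2 in 47.1%, beside 50.8%. With −log10 p of at least 5, 13 Rab genes had a promoter peak (22.03%, beside 22.1% of all), and Rab14, Rab26, Rab2a and Rab33b lost theirs. A 500 bp window removed Rab2a, windows of 2 and 3 kb added Rab44, and start sites from RefSeq or of protein-coding transcripts alone gave the same 17 genes. Leaving out peaks that are at least 80% repeat removed the Rab4a peak. No paired analysis was possible because each group has 1 library. For the same reason no library could be left out, and a peak that another library would not give cannot be recognised here.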

Other observations

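Chromosome X carried 4 Rab genes, Rab9, Rab9b, Rab33a and Rab39b, and 0 of the 4 had a promoter peak. Of the 948 protein-coding genes of that chromosome 66 (6.96%) had a promoter peak, beside 24.6% of all protein-coding genes. The 4 Rab genes also had no gene body peak, for which no share over the chromosome was computed. The nearest peak was 162 kb from the TSS at Rab39b and 484 kb at Rab9.

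Another gene's TSS was within 1 kb of the midpoint at 5 of the 17 Rab promoter peaks (29.4%). No such share was computed for the promoter peaks of all protein-coding genes, so this is not shown to be particular to Rab genes. Besides Prelid1 at the Rab24 peak, these were a transcribed pseudogene 224 bp from the Rab22a midpoint, an antisense RNA 327 bp from that of Rab26, an unclassified transcript 488 bp from that of Rab33b and the microRNA gene Mir7236 at 995 bp from that of Rab40b. Of the 4 partners other than Prelid1 none is annotated as protein-coding. The Rab15 peak also lay inside Fntb, the gene for a subunit of farnesyltransferase, an enzyme that attaches a lipid to other small GTPases.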
